A study of Rattus norvegicus with 23 samples.

Results

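The genes described here are 7 genes of the cell division cycle, Mki67, Top2a, Ccnb1, Cdk1, Pcna, Ccnd1 and Cdkn1a, out of the 32883 rat genes in the count table. They were chosen by a list of Ensembl identifiers: ENSRNOG00000028137 (Mki67), ENSRNOG00000053047 (Top2a), ENSRNOG00000058539 (Ccnb1), ENSRNOG00000000632 (Cdk1), ENSRNOG00000021264 (Pcna), ENSRNOG00000020918 (Ccnd1) and ENSRNOG00000000521 (Cdkn1a). Each had at least 10 counts in at least 2 of the 23 libraries, so all 7 are included. All 7 were also among the 11857 genes that passed the filter on low counts and were tested. The table gives identifiers without names, the pairing of the 7 identifiers with gene symbols came with the list, and no table used here could check it.

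The cells were wild-type neural stem cells from the hippocampus of adult female rats. They were cultured on a soft or a stiff substrate and sampled at 0, 12, 24 and 36 h, and RNA was counted as tags near the 3' end of transcripts. Every group, the 0 h groups included, is labelled as being in the same mixed differentiation medium, DMEM-F12 with N2 plus 1 uM retinoic acid and 1% FBS. The 8 groups are soft 0 h, stiff 0 h, soft 12 h, stiff 12 h, soft 24 h, stiff 24 h, soft 36 h and stiff 36 h, with 3 libraries each and 2 for soft 12 h, numbered by round 1, 2 or 3. Round 2 of soft 12 h is not analysed here. The study set out to find genes whose transcripts depend on substrate stiffness, but the labels give neither the stiffness of the substrates nor what 0 h marks. Whether the rounds were independent cultures is not said, so p-values here reflect the spread among these libraries, which may be technical. Without gene names the labelled cell type could not be checked against its markers.

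A dividing cell is driven from phase to phase by cyclins, which switch on cyclin-dependent kinases, and is held back by kinase inhibitors. D-type cyclins carry growth signals into the decision to copy DNA, replication proteins act while it is copied, and B-type cyclins with Cdk1 drive entry into mitosis. Neural stem cells of the adult hippocampus divide slowly or rest, and in culture they leave the cycle as they differentiate into neurons and glia.

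Totals ran from 2462360 to 6811157 counts per library. Depth at 12 h was 5428086 and 6519349 counts on soft and 2462360 to 4803755 on stiff. The smallest count of any member in any library was 20 (Cdkn1a), and of the other 6 it was 128 (Mki67). Levels are given as CPM, tag counts per 1000000 counts of the scaled library total. A gene is called changed where the Benjamini-Hochberg adjusted p of edgeR's quasi-likelihood test, over all 11857 genes, is under 0.05. In bulk RNA, fewer cells of a type and less RNA per cell cannot be told apart.

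Over the whole course 6 of the 7 genes fell and 1 rose, on both substrates. From 0 h to 36 h Mki67, Top2a, Ccnb1, Cdk1, Pcna and Ccnd1 were called lower and Cdkn1a was called higher. Among all tested genes 26.2% were called lower and 28% higher on soft, and 28.3% lower and 29.2% higher on stiff. The median change of the 7 was -2.05 on soft and -2.11 on stiff (log2), against 0.02 and 0.01 for all tested genes. What set the genes apart from each other was the timing, and 4 courses can be described: late falls of Mki67, Top2a, Ccnb1 and Cdk1, a fall of Pcna divided unequally between steps on the 2 substrates, an early lasting fall of Ccnd1, and a rise of Cdkn1a with its highest mean at 24 h.

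**Figure D1:**
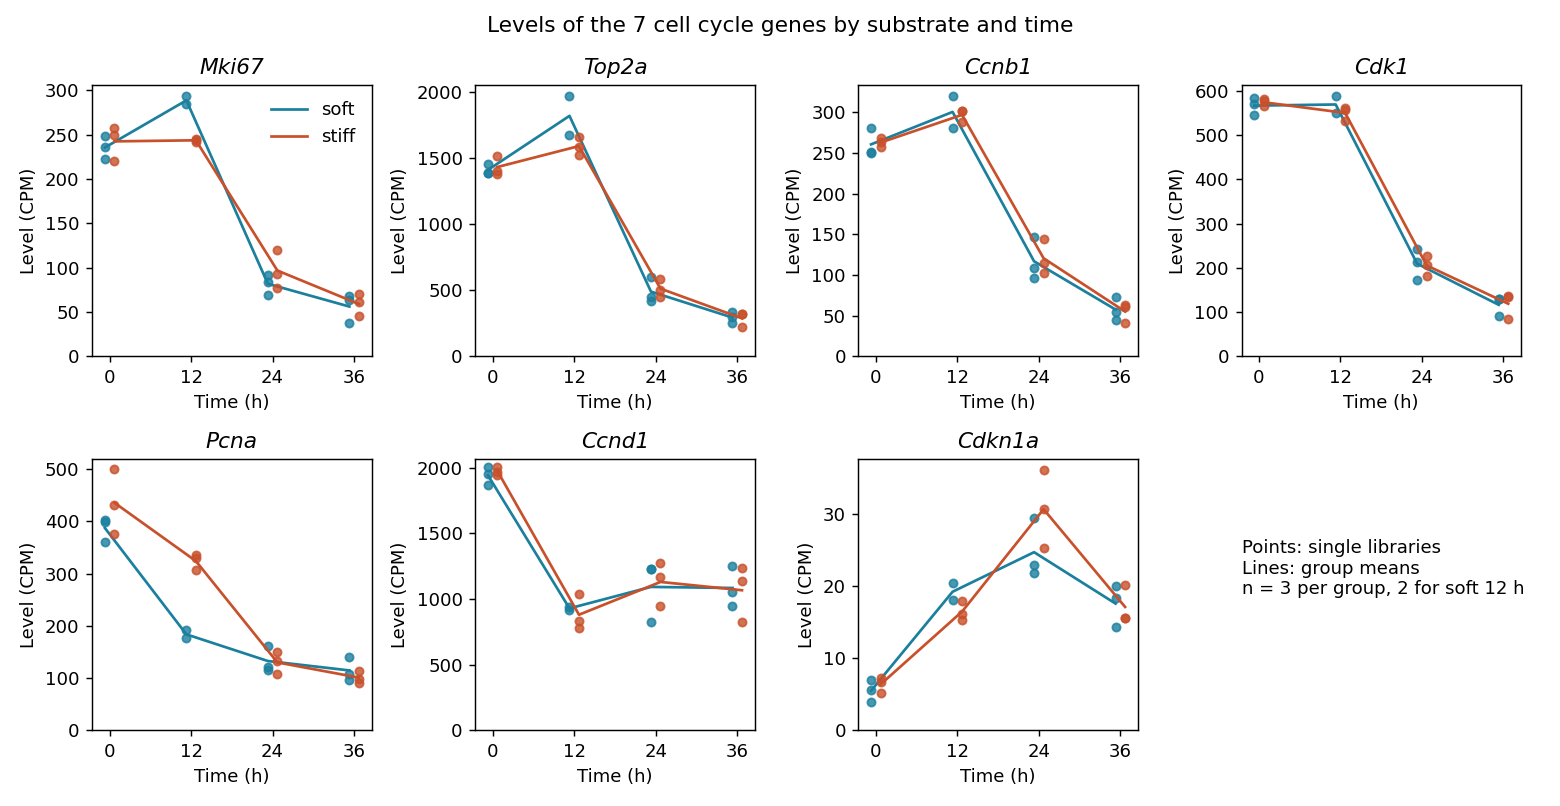
Level (CPM) of each of the 7 genes against time (h), with 1 point per library and lines through the group means, soft in blue and stiff in orange. Mki67, Top2a, Ccnb1 and Cdk1 stay high to 12 h and are low by 24 h, Ccnd1 is low from 12 h on, Cdkn1a is highest at 24 h, and for Pcna the soft libraries at 12 h (176 and 191 CPM) lie below the stiff ones (307 to 335 CPM).

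Mki67 encodes the Ki-67 protein, which coats chromosomes in mitosis and is made in cycling cells. On soft its level in rounds 1, 2 and 3 was 248, 223 and 236 CPM at 0 h, 293 and 284 CPM in rounds 1 and 3 at 12 h, 69.2, 92.4 and 84.2 CPM at 24 h, and 37.8, 67.7 and 63.5 CPM at 36 h. On stiff it was 249.4, 220 and 258 CPM at 0 h, 245, 245 and 242 CPM at 12 h, 77.4, 120 and 93.5 CPM at 24 h, and 45.6, 69.9 and 62.0 CPM at 36 h. Every library of 0 h and 12 h thus lay above every library of 24 h and 36 h. The step from 12 h to 24 h was a 3.51-fold fall on soft (log2 change -1.81, SE 0.16, edgeR adjusted p = 1.14e-10) and a 2.52-fold fall on stiff (log2 change -1.34, SE 0.15, edgeR adjusted p = 1.26e-08). From 24 h to 36 h it fell again, by 0.53 on soft and by 0.70 on stiff on the log2 scale (edgeR adjusted p = 0.0309 and 0.00274). By 36 h 23.9% of the 0 h mean remained on soft and 24.4% on stiff.

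The call of the later Mki67 step was lost without some single libraries. On soft it was -0.32 without soft 36 h replicate 1 (edgeR adjusted p = 0.258), -0.43 without soft 24 h replicate 2 (adjusted p = 0.162) and -0.51 without soft 24 h replicate 3 (adjusted p = 0.0727), and DESeq2 gave an adjusted p of 0.0533. On stiff the call was lost without stiff 24 h replicate 2 (log2 change -0.52, edgeR adjusted p = 0.0503).

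Top2a encodes topoisomerase II alpha, which untangles sister DNA molecules before they separate in mitosis. On soft it stood at 1455, 1390 and 1391 CPM at 0 h in rounds 1, 2 and 3, at 1968 and 1674 CPM in rounds 1 and 3 at 12 h, at 422, 600 and 450 CPM at 24 h, and at 251, 336 and 298 CPM at 36 h. On stiff it stood at 1514, 1381 and 1407 CPM at 0 h, 1664, 1527 and 1587 CPM at 12 h, 451, 586 and 503 CPM at 24 h, and 225, 319 and 323 CPM at 36 h. On both substrates the 12 h libraries were the highest, and at 12 h both soft libraries lay above all 3 stiff ones. The change from 0 h to 12 h was called on soft (log2 change 0.37, SE 0.13, edgeR adjusted p = 0.0328) but not on stiff (log2 change 0.15, SE 0.12, edgeR adjusted p = 0.407), and the difference between the 2 steps was not called (log2 difference -0.21, SE 0.18, edgeR adjusted p = 0.695). The fall from 12 h to 24 h was 3.70-fold on soft and 3.10-fold on stiff (log2 changes -1.89 and -1.63, edgeR adjusted p = 1.22e-12 and 1.18e-11), among the largest of all: 0.616% and 0.708% of tested genes had a log2 change as low or lower in that step. A further fall followed from 24 h to 36 h, by 0.73 on soft and 0.83 on stiff (log2, edgeR adjusted p = 0.000107 and 2.04e-05). The call from 0 h to 12 h on soft was lost with unscaled totals (log2 change 0.30, edgeR adjusted p = 0.0814) and without soft 12 h replicate 1 (0.24, adjusted p = 0.311). It was also lost without soft 0 h replicate 1 (log2 change 0.39, edgeR adjusted p = 0.0518), replicate 2 (0.36, adjusted p = 0.0812) or replicate 3 (0.31, adjusted p = 0.115), where the change stayed near its size with all libraries.

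Cdk1 encodes the kinase that carries cells into mitosis, and Ccnb1 encodes cyclin B1, its partner. Cdk1 was not called changed over the first 12 h. Its libraries ran from 546 to 583 CPM on soft at 0 h and from 564 to 581 CPM on stiff, and stood at 588 and 550 CPM on soft and 532, 561 and 556 CPM on stiff at 12 h. The change in that step was 0.01 (SE 0.14) on soft and -0.06 (SE 0.12) on stiff, with 95% intervals of -0.26 to 0.27 and -0.30 to 0.18 (log2), and neither was called. At 24 h Cdk1 was at 173, 242 and 213 CPM on soft and 183, 228 and 206 CPM on stiff, and at 36 h at 90.6, 130 and 129 CPM and at 85.7, 137 and 135 CPM. Both later steps were falls, by 1.44 and 0.84 on soft and 1.42 and 0.78 on stiff (log2, edgeR adjusted p from 3.15e-10 to 0.000117).

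Ccnb1 ran at 250 to 280 CPM on soft and 257 to 268 CPM on stiff at 0 h, and at 281 to 319 and 287 to 302 CPM at 12 h, when every library lay above every one of 0 h. That difference was not called on either substrate (log2 change 0.21, SE 0.15, edgeR adjusted p = 0.331 on soft, and 0.18, SE 0.14, adjusted p = 0.407 on stiff). Its levels then dropped to 95.9 to 146 and 103 to 144 CPM at 24 h and to 44.3 to 73.4 and 41.6 to 63.1 CPM at 36 h. The last step was -0.996 after one of -1.35 on soft, and -1.12 after one of -1.30 on stiff (log2), and all 4 were called with edgeR adjusted p of 3.79e-05 or less. The difference between consecutive steps was not tested. At 36 h Ccnb1 and Cdk1 were at 22.1% and 20.6% of their 0 h means on soft and at 21.01% and 20.8% on stiff.

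Counts of members called in each step can be set against all tested genes. In the first 12 h 2 members were called higher (Top2a and Cdkn1a) and 2 lower (Pcna and Ccnd1) on soft, where 15.2% and 13.9% of tested genes were, and 1 higher (Cdkn1a) and 2 lower (Pcna and Ccnd1) on stiff, where 11.8% and 9.75% were. From 12 h to 24 h 5 were called lower on soft (19.1% of tested genes) and 5 lower and 2 higher on stiff (16.1% and 14.5%), the 5 being Mki67, Top2a, Ccnb1, Cdk1 and Pcna on both. From 24 h to 36 h 4 were called lower on soft (4.33%) and 5 on stiff (5.29%), and 0 were called higher by edgeR or DESeq2 (4.66% and 4.6% of tested genes by edgeR, and no member rose at an unadjusted p under 0.05).

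**Figure D2:**
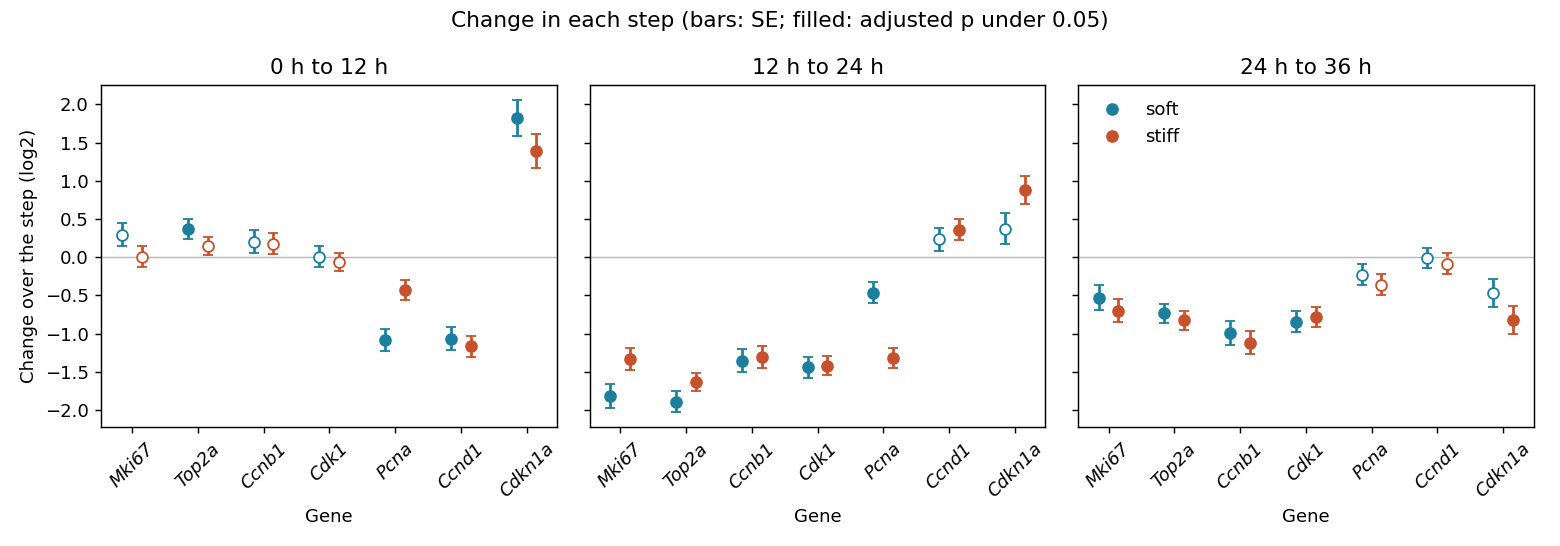
Change of each gene (log2) over each of the 3 steps, soft in blue and stiff in orange, with bars of 1 SE and filled points where the edgeR adjusted p is under 0.05. In the first step only Pcna and Ccnd1 are called lower and Cdkn1a, with Top2a on soft, higher, and in the second Mki67, Top2a, Ccnb1, Cdk1 and Pcna are called lower on both substrates.

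The promoters of Mki67, Top2a, Cdk1 and Ccnb1 are shown because these genes moved together and because promoters of late cell cycle genes are known for 2 elements, the cell cycle genes homology region (CHR, searched as TTTGAA) and CCAAT boxes, which bind the DREAM or MuvB and NF-Y complexes. The sequences are those of RefSeq on the GRCr8 build, which is not the rn6 build of the counts, and 6 of the 7 symbols had an entry, Ccnd1 being the exception. Each runs 5' to 3' on the strand of the gene, from 250 bases before the start to 50 after it, with capitals marking these elements and the E2F forms TTTCGCGC, TTTGGCGC and TTTCCCGC on either strand.
Mki67, chr1:199952544-199952843, minus strand: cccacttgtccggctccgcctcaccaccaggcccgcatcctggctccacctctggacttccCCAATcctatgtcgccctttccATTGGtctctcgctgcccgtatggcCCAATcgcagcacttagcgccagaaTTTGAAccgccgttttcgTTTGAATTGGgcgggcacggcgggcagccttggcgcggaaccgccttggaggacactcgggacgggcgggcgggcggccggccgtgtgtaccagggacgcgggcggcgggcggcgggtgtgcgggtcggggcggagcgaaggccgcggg
Top2a, chr10:84473044-84473343, minus strand: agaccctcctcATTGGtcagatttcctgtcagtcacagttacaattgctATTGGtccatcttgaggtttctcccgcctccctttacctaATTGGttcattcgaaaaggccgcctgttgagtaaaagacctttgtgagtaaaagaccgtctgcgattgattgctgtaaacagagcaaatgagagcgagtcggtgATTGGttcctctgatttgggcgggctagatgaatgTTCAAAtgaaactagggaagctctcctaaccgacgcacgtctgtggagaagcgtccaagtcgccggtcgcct
Cdk1, chr20:19265043-19265342, plus strand: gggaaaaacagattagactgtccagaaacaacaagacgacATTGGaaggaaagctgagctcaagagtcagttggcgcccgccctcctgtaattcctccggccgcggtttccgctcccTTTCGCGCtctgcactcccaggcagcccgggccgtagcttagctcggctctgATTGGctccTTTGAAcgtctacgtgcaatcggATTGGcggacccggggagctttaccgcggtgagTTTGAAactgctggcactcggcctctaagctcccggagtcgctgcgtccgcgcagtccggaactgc
Ccnb1, chr2:33655176-33655475, minus strand: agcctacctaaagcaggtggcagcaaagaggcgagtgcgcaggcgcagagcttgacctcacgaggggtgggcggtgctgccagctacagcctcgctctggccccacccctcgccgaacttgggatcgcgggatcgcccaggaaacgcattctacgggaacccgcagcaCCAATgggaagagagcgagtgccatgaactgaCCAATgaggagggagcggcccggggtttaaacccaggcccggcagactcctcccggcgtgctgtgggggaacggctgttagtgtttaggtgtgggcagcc
Mki67 held 2 matches to TTTGAA and 4 to CCAAT, of which 1 pair overlapped by sharing letters, Top2a 1 and 4, Cdk1 2 and 3, and Ccnb1 0 and 2. An E2F form was found in Cdk1, 1 match. Pcna held 1 CCAAT and no other match, and Cdkn1a held 0 of any. Of all 33469 promoters of this length in the table, 18.3% held at least 1 TTTGAA and 2.51% at least 2. At least 1, 2 and 3 CCAAT were held by 37.5%, 11.2% and 3.02%. Both TTTGAA and CCAAT were held by 7.41%, and an E2F form by 1.72%. A match describes letters only, and no binding was measured.

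Pcna encodes the sliding clamp that holds DNA polymerase on the template during replication. At 0 h it was at 399, 402 and 362 CPM on soft and 376, 500 and 432 CPM on stiff, with overlapping libraries. At 12 h it was at 191 and 176 CPM on soft and 307, 335 and 330 CPM on stiff, so that the substrates did not overlap. At 24 h it was at 115, 162 and 121 CPM on soft and 107, 150 and 133 CPM on stiff, and at 36 h at 95.3, 109 and 140 CPM and at 91.0, 114 and 97.6 CPM, overlapping again. The libraries of the 2 substrates were thus apart at 12 h and overlapped at 0, 24 and 36 h. On soft the first 12 h brought a 2.11-fold fall (log2 change -1.08, SE 0.14, edgeR adjusted p = 5.9e-07) and the next 12 h one of 0.46 on the log2 scale (edgeR adjusted p = 0.0105). On stiff the first fall was 1.35-fold (log2 change -0.43, SE 0.13, edgeR adjusted p = 0.0119) and the second 2.496-fold (log2 change -1.32, SE 0.13, edgeR adjusted p = 1.92e-09). The first step held 61.0% of the log2 change from 0 h to 36 h on soft and 20.4% on stiff, and the second 26.1% and 62.6%. From 24 h to 36 h the change was -0.23 on soft (SE 0.13) and -0.36 on stiff (SE 0.13), not called (edgeR adjusted p = 0.343 and 0.0892), though on stiff it was called without stiff 24 h replicate 1 (-0.48, edgeR adjusted p = 0.0258).

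The smaller of these steps kept their direction but lost the call without some single libraries. The second step on soft was not called without soft 12 h replicate 1 (log2 change -0.40, edgeR adjusted p = 0.0974) or soft 24 h replicate 1 (-0.34, adjusted p = 0.085). The first step on stiff was not called without stiff 0 h replicate 2 (log2 change -0.32, edgeR adjusted p = 0.11) or stiff 12 h replicate 1 (-0.41, adjusted p = 0.0516).

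Pcna was the 1 member called between substrates, and at 12 h alone. The stiff libraries of 12 h held 1.76 times the soft level (log2 difference 0.82, SE 0.15, edgeR adjusted p = 0.000245), where 5.36% of tested genes were called higher on stiff and 1.24% lower. Without each 12 h library in turn the log2 difference was 0.76 to 0.88. The call held without each stiff 12 h library. Leaving out a soft 12 h library leaves 1 in that group, so those fits are given by size alone. At 0, 24 and 36 h the difference was 0.17 (SE 0.12), -0.04 (SE 0.13) and -0.17 (SE 0.14), none called. A joint F test of 3 coefficients asked whether the effect of stiffness at 12, 24 and 36 h was that of 0 h, and Pcna passed it (edgeR adjusted p = 0.00741), as 1 of the 7 members and with 3.31% of tested genes. By steps, the change from 12 h to 24 h was 0.86 lower on stiff than on soft (log2 difference -0.86, SE 0.19, edgeR adjusted p = 0.00576, where 3.85% of tested genes were called lower). The change from 0 h to 12 h was 0.65 higher on stiff (SE 0.19) and was not called (edgeR adjusted p = 0.0725, where 1.87% of tested genes were called), but it was without stiff 0 h replicate 2 (edgeR adjusted p = 0.0282) or soft 0 h replicate 3 (0.0455). DESeq2 called it at an adjusted p of 0.0448. The calls of the F test and of the step from 12 h to 24 h were lost without soft 12 h replicate 3, at edgeR adjusted p of 0.111 for the F test and 0.0543 for the step, a fit that takes the spread of the other groups for the 1 soft 12 h library left. Depth moved with this result, since the soft 12 h libraries were the deeper ones, and its part was not tested.

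The other 6 members were not called between substrates at any time. At 12 h the stiff libraries of Mki67 and Top2a all lay below the soft ones, at log2 differences of -0.24 (SE 0.16) and -0.19 (SE 0.13) with edgeR adjusted p of 0.407 and 0.447. Cdkn1a did not overlap either, at -0.21 (SE 0.22, edgeR adjusted p = 0.653). With Pcna that makes 4 of 7 genes without overlap at 12 h, against 35.9% of tested genes, with 2 soft and 3 stiff libraries compared. At 0, 24 and 36 h the libraries of the substrates overlapped for all 7 genes, while 7.98%, 7.78% and 12.6% of tested genes did not overlap. At 0 h edgeR and DESeq2 called 0 of the 7 members, and 0 had an unadjusted p under 0.05 (0% of tested genes were called). The 95% intervals of Mki67, Top2a, Ccnb1, Cdk1 and Ccnd1 there lay between -0.25 and 0.31 (log2). Those of Pcna and Cdkn1a reached further, from -0.07 to 0.41 and from -0.26 to 0.70. At 24 h 0 were called by either tool (0% of tested genes) and 0 had an unadjusted p under 0.05, the nearest being Cdkn1a at 0.30 (SE 0.17). At 36 h 0 of the 7 were called by either tool and 0 had an unadjusted p under 0.05 (0.0675% of tested genes were called by edgeR), with 95% intervals between -0.44 and 0.39. Of the steps, that of Mki67 from 12 h to 24 h differed by 0.48 between stiff and soft (SE 0.21), not called (edgeR adjusted p = 0.24). From 24 h to 36 h no step of the 7 differed at an unadjusted p under 0.05, and edgeR and DESeq2 called 0 (0% of tested genes by edgeR).

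**Figure D3:**
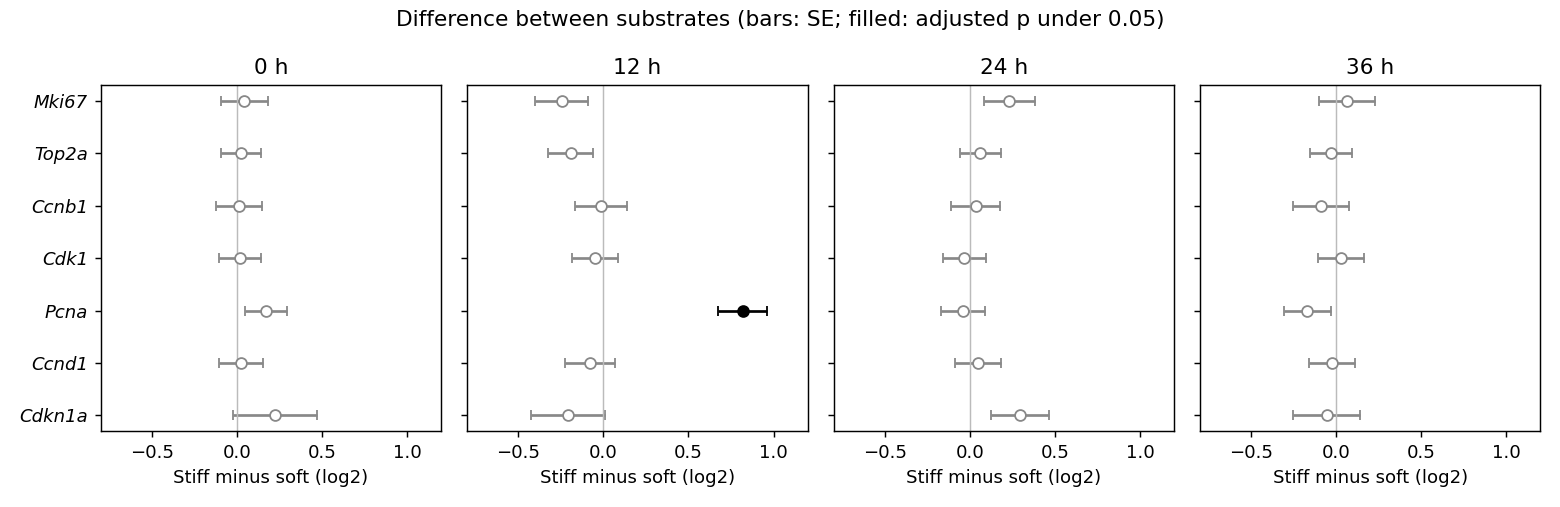
Stiff minus soft difference of each gene (log2) at 0, 12, 24 and 36 h, with bars of 1 SE and a filled point where the edgeR adjusted p is under 0.05. The filled point is Pcna at 12 h, at 0.82, and the bars of Ccnb1, Cdk1 and Ccnd1 cross 0 at all 4 times.

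Ccnd1 encodes cyclin D1, which relays growth signals to the kinases that open the way to DNA replication. It stood at 1869, 1951 and 2008 CPM on soft and 2005, 1972 and 1948 CPM on stiff at 0 h. At 12 h it stood at 915 and 943 CPM on soft and 830.5, 1035 and 776 CPM on stiff. All 6 libraries of 0 h were above all 17 later ones. The fall was 2.09-fold on soft and 2.25-fold on stiff (log2 changes -1.06, SE 0.15, and -1.17, SE 0.13, edgeR adjusted p = 1.85e-06 and 3.48e-08), a step in which Mki67, Top2a, Ccnb1 and Cdk1 were not called lower. At 24 h the libraries ran at 821, 1229 and 1226 CPM on soft and 946, 1274 and 1171 CPM on stiff, and at 36 h at 947, 1251 and 1055 CPM and at 824, 1140 and 1237 CPM. The step from 12 h to 24 h was 0.36 on stiff (SE 0.13, edgeR adjusted p = 0.0378) and 0.23 on soft (SE 0.15, edgeR adjusted p = 0.227), and their difference was not called (0.13, SE 0.20, edgeR adjusted p = 0.805). The call on stiff was lost in DESeq2 (adjusted p = 0.0807) and without stiff 12 h replicate 1 (edgeR adjusted p = 0.129) or replicate 3 (0.174) or stiff 24 h replicate 2 (0.176) or replicate 3 (0.0931), with log2 changes of 0.27 to 0.35 in those 4 fits, while on soft the step became called without soft 24 h replicate 1 (0.43, edgeR adjusted p = 0.0179). At 36 h 55.8% and 54.0% of the 0 h mean remained on soft and stiff.

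Cdkn1a encodes p21, which inhibits cyclin-dependent kinases, binds Pcna protein and is a well-known target of p53. Its counts ran from 20 to 206 per library. At 0 h it was at 3.92, 5.52 and 7.004 CPM on soft and 6.67, 5.15 and 7.27 CPM on stiff. At 12 h it was at 20.4 and 18.1 CPM on soft and 17.96, 16.1 and 15.3 CPM on stiff, and at 24 h at 21.7, 29.4 and 22.97 CPM and at 30.6, 36.1 and 25.3 CPM. The 0 h libraries were below every later one on both substrates. The first step was a 3.53-fold rise on soft (log2 change 1.82, SE 0.23, edgeR adjusted p = 2.54e-07) and a 2.62-fold rise on stiff (log2 change 1.39, SE 0.22, edgeR adjusted p = 1.19e-05), and 2.16% and 3.46% of tested genes changed as much upward or more. On stiff a further 1.84-fold rise followed by 24 h (edgeR adjusted p = 0.00048) and then a 1.77-fold fall by 36 h (edgeR adjusted p = 0.00259). On soft the same steps were 0.38 (SE 0.20) and -0.47 (SE 0.19) and were not called (edgeR adjusted p = 0.142 and 0.115). These steps were not called different between the substrates (log2 differences 0.50, SE 0.28, and -0.35, SE 0.26, edgeR adjusted p = 0.358 and 0.999). At 36 h Cdkn1a was at 18.3, 20.04 and 14.4 CPM on soft and 15.5, 20.2 and 15.6 CPM on stiff, 3.30-fold and 2.72-fold above 0 h (edgeR adjusted p = 7.03e-08 and 6.16e-07).

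The 8 groups can be ordered by their means. For Mki67 the order was soft 12 h, stiff 12 h, stiff 0 h, soft 0 h, stiff 24 h, soft 24 h, stiff 36 h and soft 36 h, and ranges of libraries parted from the next only below soft 12 h and below soft 0 h. Top2a and Ccnb1 were highest on soft 12 h and then stiff 12 h, with gaps between 12 h and 0 h, 0 h and 24 h, and 24 h and 36 h, and for Top2a also between soft and stiff at 12 h. Cdk1 had gaps below the 4 groups of 0 h and 12 h and between 24 h and 36 h. Pcna had gaps below soft 0 h, stiff 12 h and soft 12 h, and its 24 h and 36 h groups overlapped their neighbours. Ccnd1 had 1 gap, below the 0 h groups. Cdkn1a had gaps below soft 24 h and below stiff 12 h, its highest group being stiff 24 h at 30.7 ± 5.39 CPM and its lowest soft 0 h at 5.48 ± 1.54 CPM (SD, n = 3 each).

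Across the 23 libraries, which share the time course, the log2 levels of Mki67, Top2a, Ccnb1 and Cdk1 correlated with Pearson's r of 0.978 to 0.992 over their 6 pairs. By r over the 8 group means to Mki67, Top2a stood at 0.998, Cdk1 at 0.992, Ccnb1 at 0.984, Pcna at 0.857, Ccnd1 at 0.299 and Cdkn1a at -0.517. High values are common in this course: 898 of 11850 other tested genes were above 0.95. The 2 outside the list with the highest r to Mki67 were ENSRNOG00000030101 at 0.999 and ENSRNOG00000014336 at 0.998, which have no name in the tables used here.

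The round number went with the level of these genes late in the course. In each of soft 24 h, stiff 24 h, soft 36 h and stiff 36 h, the round 1 library was the lowest of 3 for Mki67, Top2a, Ccnb1, Cdk1, Pcna and Ccnd1, that is for 6 of the 7 members in all 4 groups, where 3.42% of tested genes showed it. For Cdkn1a it was the lowest in 2 of 4. The round 2 library was the highest in 4 of 4 groups for Mki67, Ccnb1, Cdk1 and Cdkn1a and in 3 of 4 for Top2a, Pcna and Ccnd1. Averaged over the 4 groups, the round 1 library lay below its group mean by 0.35 for Mki67, 0.30 for Ccnb1 and Cdk1, 0.29 for Ccnd1, 0.24 for Top2a, 0.21 for Pcna and 0.05 for Cdkn1a (log2 CPM). At 0 h and on stiff at 12 h the round 1 library was the lowest in 0 of 3 groups for Mki67, Top2a and Ccnb1, in 1 for Ccnd1 and Cdkn1a and in 2 for Cdk1 and Pcna. This pattern was chosen after the values were seen.

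Libraries of 1 group differed in these genes together at the later times. Deviations from the group mean were correlated for the 6 pairs of Mki67, Top2a, Ccnb1 and Cdk1. Over the 12 libraries of 24 h and 36 h r was 0.875 to 0.977. Over the 11 libraries of 0 h and 12 h r was 0.0596 to 0.59. The trait was not theirs alone. At 24 h and 36 h Ccnd1 correlated with each of them at 0.815 to 0.889 and Pcna at 0.682 to 0.787. For Cdkn1a r with them was lower, at 0.346 to 0.604. At 0 h and 12 h r with them was -0.356 to 0.291 for Ccnd1 and -0.521 to -0.0662 for Pcna. For Cdkn1a it was 0.123 to 0.584. How common such values are among all tested genes was not tested. The spread of Mki67, Top2a, Ccnb1, Cdk1 and Ccnd1 was also larger at 36 h than at 0 h on both substrates, and that of Pcna on soft. For Cdk1 the SD of log2 CPM at 0 h was 0.0478 on soft and 0.0213 on stiff, and 0.298 and 0.383 at 36 h. For Ccnd1 it was 0.052 and 0.0208 at 0 h and 0.202 and 0.31 at 36 h. For Pcna on soft it went from 0.0855 to 0.28. The median over all tested genes was 0.169 and 0.173 at 0 h and 0.191 and 0.166 at 36 h. From 0 h to 36 h the SD went down for Cdkn1a on soft (0.391 to 0.243) and stiff (0.242 to 0.213). It also went down for Pcna on stiff (0.205 to 0.166). Total counts of the late libraries ran from 3372308 to 6566822 in round 1, 5203157 to 6811157 in round 2 and 2573665 to 6531688 in round 3. Round 2 was the deepest in soft 24 h (6811157), soft 36 h (6358462) and stiff 36 h (5203157). In stiff 24 h round 1 was the deepest (6566822) and round 2 the shallowest (5255181). The part of depth was not tested. With all round 1 libraries left out, an alternative added after seeing the data, 1 soft 12 h library remained. The falls from 0 h to 36 h were called for the same 6 genes and the rise for Cdkn1a on both substrates. Pcna at 12 h stayed higher on stiff, a difference that there rests on 1 soft library. In that fit, which drops 8 of the 23 libraries, some steps between groups other than soft 12 h kept their direction but were not called. They were Mki67 from 24 h to 36 h on soft (log2 change -0.43, edgeR adjusted p = 0.0608) and Cdkn1a from 24 h to 36 h on stiff (-0.76, adjusted p = 0.0568). Steps that involve the 1 soft 12 h library are given by size alone. They were -0.31 for Pcna from 12 h to 24 h on soft and 0.27 for Top2a from 0 h to 12 h on soft (log2 changes). For Ccnd1 from 12 h to 24 h on soft the log2 change was 0.38.

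**Figure D4:**
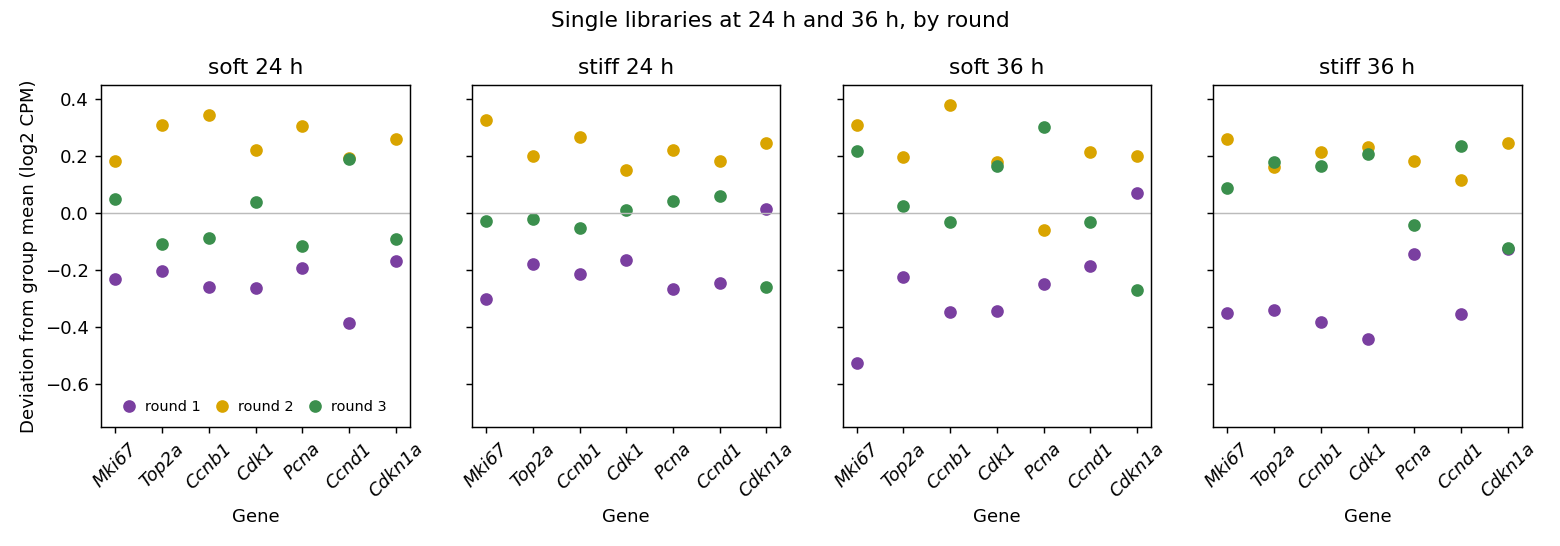
Deviation of each library at 24 h and 36 h from the mean of its group (log2 CPM) for the 7 genes, coloured by round number. The round 1 points are the lowest for Mki67, Top2a, Ccnb1, Cdk1, Pcna and Ccnd1 in all 4 groups, and reach -0.53 for Mki67 on soft at 36 h.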

How the data were processed

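Per the labels, RNA from cell pellets was made into QuantSeq FWD libraries, in which each transcript gives a tag close to its 3' end. The authors deposited whole-number counts per Ensembl gene, not normalized, 1 column per library. Tools in the submitters' processing notes are HISAT2 2.1.0, HTSeq and FastQC, with build rn6. The strand setting and annotation release are not named there. A gene with pseudogenes or an overlapping neighbour may share reads with them.

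The test was edgeR 4.0.16 under R 4.3.3: TMM factors, filterByExpr (minimum count 10, minimum total 15), 1 quasi-likelihood fit of 8 group means to 23 libraries, and Benjamini-Hochberg adjustment over 11857 genes. Fold changes are log2, with the SE implied by the F statistic and 95% intervals of 1.96 SE. CPM uses TMM-scaled totals, and log2 CPM a prior count of 2. Levels were not compared between genes. Replicates differed by more than sampling noise (chi-square per degree of freedom 2.42 to 9.11), and each was counted. The fits were tested on simulated data. Alternatives were RLE factors, unscaled totals, no filter, DESeq2 1.42.0, a filter of 5 CPM in 3 libraries, the round as a block, the compared groups alone, each library left out and, added later, round 1 left out.

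The members, the lists and the tests were chosen with earlier results of these data known. The rule for named genes was all 7 members, plus the tested genes most like Mki67. Of 32883 identifiers 0 matched the reference table (GRCr8), so the lists of other cell cycle genes and of cell type markers could not be used.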

Additional observations from a re-analysis of the deposited data

Results flagged for a closer look

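For Pcna the effect of stiffness differed between times by a test of the difference itself. The F test against 0 h gave an edgeR adjusted p of 0.00741, and the step from 12 h to 24 h was lower on stiff than on soft by a log2 difference of -0.857 (edgeR adjusted p = 0.00576), with both soft 12 h libraries below all 3 stiff ones. No other member of the 7 passed either test. Among tested genes 3.31% were called by the F test and 3.85% were called lower in the step. Without soft 12 h replicate 3, which leaves 1 library in that group, the step difference was -0.802 and neither call was kept. Groups of 2 or 3 libraries are too small for a search for outlying samples.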

How the results depend on the processing

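Of 112 differences and tests of the 7 genes, 45 were called. Under the alternatives 36 of these kept the call throughout, 9 lost it in at least 1 and 0 changed sign. Of the 67 not called, 5 passed in at least 1 alternative and 35 changed sign in at least 1 while not called. The count of members called moved by over 1.5 times in 9 of 253 recalculations. For the step from 0 h to 12 h on stiff minus on soft it was 0 and became 1 (Pcna) with no filter on low counts, in DESeq2, in the compared groups alone and with the round number as a replicate block, and it ran from 0 to 1 with each library left out. For the step from 12 h to 24 h on stiff minus on soft it was 1 and became 2 with no filter (Mki67 added, adjusted p = 0.0296), and it ran from 0 to 1 with each library left out. For the F test of 3 coefficients it was 1 and ran from 0 to 1 likewise. For stiff minus soft at 0, 12, 24 and 36 h the member counts were 0, 1, 0 and 0 under every alternative run.

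Libraries of the same round were not treated as paired in the main fit, since the labels do not say what a round shares. Deviations of same-numbered libraries from their group means correlated with r of -0.087 to 0.148 over 77 pairs, and 11 were above 0.1. Even so, 21 of 23 libraries correlated best on average with the libraries of their own round in other groups, a sign of variation shared within rounds. The p-values of the main fit leave this out. With the round as a replicate block, Mki67 from 0 h to 12 h on soft (log2 change 0.343, adjusted p = 0.0447), Pcna from 24 h to 36 h on stiff (-0.359, adjusted p = 0.0198) and the Pcna step difference from 0 h to 12 h (0.592, adjusted p = 0.0193) became called, and the other member calls did not change. All genes called went from 782 to 969 at 12 h and from 8 to 48 at 36 h between substrates.

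Pcna from 24 h to 36 h on stiff was also called with no filter (adjusted p = 0.00474), in the compared groups alone (0.0476) and without stiff 24 h replicate 1 (0.0258). Ccnd1 from 12 h to 24 h on soft was called with no filter (adjusted p = 0.0242) and Mki67 from 0 h to 12 h on soft in the compared groups alone (0.0339), where Mki67 from 24 h to 36 h on soft was lost (0.0595). Fits without a soft 12 h library, and the fit without round 1, leave 1 there and take its spread from the other groups. Depth limits Cdkn1a most, with 20 counts in its lowest library.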
